A study of Mus musculus with 8 samples.

Results

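The interleukin-1 (IL-1) family is described here through 10 mouse genes, chosen by symbol. They are the ligands Il33, Il1a, Il1b and Il18, the receptor antagonist Il1rn, the receptor chains Il1rl1, Il1rap, Il1r1 and Il18r1, and the decoy receptor Il1r2. A probe counted as a member when the RefSeq accession in its array annotation belonged to 1 of these genes. The 10 genes are 10 of 22911 with a named probe and are read by 19 of 56605 probes.

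The ligands of this family bind a specific receptor chain, which then recruits a shared or dedicated partner chain and signals through the adaptor Myd88 to NF-kB. IL-33 is stored in the nucleus of barrier and glial cells and is released on damage. Its receptor ST2, the product of Il1rl1, is known from regulatory T cells (Treg) of non-lymphoid tissues. IL-1 beta and IL-18 are made as precursors and cut by inflammasome caspases, and IL-1 signalling is held back by the antagonist Il1rn and by Il1r2, which binds the ligand without passing on a signal.

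RNA was measured on 8 one-colour arrays, 1 for each of 8 groups, so no difference below has a replicate check, no test was run, and the number of arrays limits the precision. The 4 T cell libraries were CD4+ Treg from the brain of wild type (WT) mice 14 days after ischemic stroke (brain Treg), the nonTreg CD4+ cells of such brains (brain nonTreg), and Treg and nonTreg cells from the spleen of untreated mice (spleen Treg, spleen nonTreg). The 4 tissue libraries were slice 3 from the ischemic side of the brain at day 14, from DEREG mice after ischemia, WT mice after ischemia, DEREG mice after sham surgery and WT mice after sham surgery. DEREG mice express a diphtheria toxin receptor under Foxp3 control, so their Foxp3-expressing cells can be removed by toxin. The labels used here state neither whether toxin was given, nor how Treg were separated, nor the age, sex and number of the mice, and brain and spleen T cells also differ in that only the brain donors had a stroke.

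Values are scaled intensities in arbitrary units, that is, the processed spot brightness divided by the 75th percentile of its array and multiplied by 1 constant for the 4 arrays of a set. They can be compared between arrays of a set for the same probe, but not between genes, and not between T cells and tissue. For a gene with several probes, the one brightest on average within the set is used, and the other probes are given where they differ. A value not well above background has no order among other such values. A difference against it is a lower bound, written "at least", taken against the higher of the dim value and the lowest value well above background on that array, a floor of 8.47 to 12.4 units for T cells and of 10.5 to 12.1 units for tissue. The scanner software's own error for the measured differences of the chosen probes was between 0.20 and 0.30 on the log2 scale, and it covers the spot only, not animals. A gene was counted when it differed by at least 2-fold, which is 1 on the log2 scale. Shares of genes counted in this way are given for all compared genes beside the count of family members.

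The T cell arrays had 47.6% to 51.9% of their probes well above background, and the tissue arrays 62.0% to 65.1%. All 9 T cell markers with a probe were above background in the 4 T cell libraries and none differed by 2-fold between any pair compared, so the T cell label held. Foxp3, the lineage factor of Treg, had 3843 units in brain Treg and 7782 in spleen Treg, with 726 units in brain nonTreg and 12.2 in spleen nonTreg, a value at background. The library labelled brain nonTreg therefore held Foxp3 transcripts, and a difference between the brain libraries sets a Foxp3-high against a Foxp3-lower one. Markers of several other cell types were higher in both brain T cell libraries. The neutrophil, oligodendrocyte, astrocyte, neuron and B cell lists instead had both higher and lower markers. Of 7 dendritic cell markers compared, 6 were at least 2-fold higher and 1 lower in brain Treg than in spleen Treg. Between the nonTreg libraries 5 of the 7 were higher in the brain and 0 lower. Of 10 microglia markers, 10 were above background in brain Treg and in brain nonTreg, against 4 in the spleen Treg library and 5 in the spleen nonTreg library. Summed over the list, their level was 52497 units in brain Treg against 25491 in spleen Treg. Between the nonTreg libraries the sum was 28244 units for the brain against 25216 for the spleen. Such a sum, here and for the lists below, is weighted towards the brightest probes and does not show how far single markers differed. Counted singly, 8 of the 10 were at least 2-fold higher and 1 lower in brain Treg than in spleen Treg. Between the nonTreg libraries 7 of the 10 were higher and 0 lower. All 10 macrophage and monocyte markers were above background in both brain libraries, against 3 in each spleen library, with Adgre1, Ms4a7, Lyz2, Mrc1, Cd14 and Ccr2 among those not well above background in the spleen. Endothelial markers were higher in the brain libraries in 6 of 9 cases for Treg and 9 of 10 for nonTreg. The mast cell genes Cpa3, Mcpt4, Ms4a2 and Fcer1a were not well above background in any T cell library. Of the mast cell and basophil list as a whole, however, brain Treg exceeded spleen Treg 2-fold in 2 of 4 compared markers, and brain nonTreg exceeded spleen nonTreg in 3 of 4. Hdc was higher by 4.61 in Treg and 4.49 in nonTreg (log2), and Kit by at least 2.98 and at least 2.55. The list summed to 607 units in brain Treg and 694 in brain nonTreg, against 77 units in spleen Treg and 83 in spleen nonTreg. Il1rl1 is also known from mast cells, whose part in its values was not tested.

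In the T cell libraries the receptor genes Il1rl1, Il1r2, Il1r1 and Il18r1 and the ligand genes Il1b and Il18 were each more than 2-fold higher in the brain than in the spleen, in Treg and in nonTreg. In brain Treg against spleen Treg, 8 of 9 compared members were at least 2-fold higher, when 17.1% of all compared genes were. None was at least 2-fold lower, when 11.7% of all compared genes were. In brain nonTreg against spleen nonTreg the count was 6 of 8, when 17.6% of all genes were higher and 11.9% were lower, and again no member was lower. The median over the members measured in both libraries was 2.35 in Treg (5 genes) and 1.51 in nonTreg (3 genes), beside medians over all measured genes of -0.044 and -0.068.

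**Figure D1:**
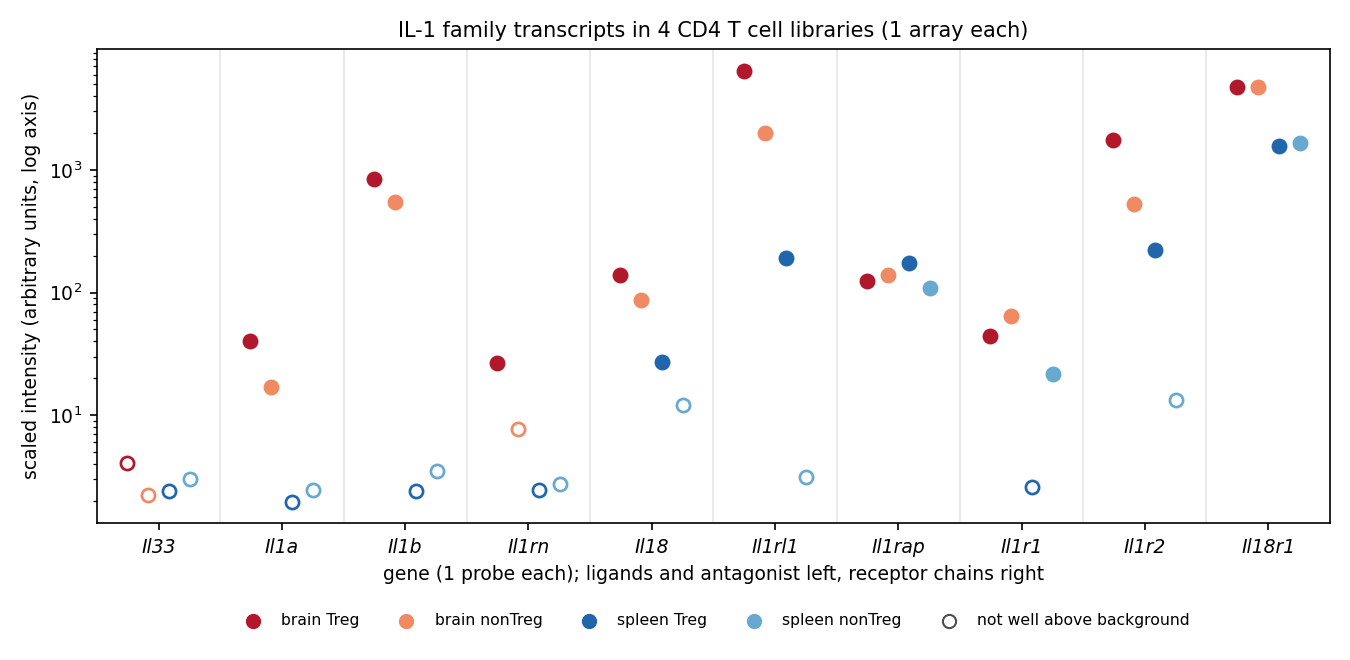
Scaled intensity (log axis, arbitrary units) of the probe chosen for each of the 10 genes in the 4 T cell libraries, 1 point per array, with open points not well above background. Il1rl1, Il1r2 and Il18 are highest in brain Treg and lie in the same order over the libraries. Il18r1 separates brain from spleen with little difference between Treg and nonTreg, and Il33 is open in all 4 libraries.

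Il1rl1, encoding the IL-33 receptor ST2, had 6445 units in brain Treg and 2009 in brain nonTreg, against 190.3 units in spleen Treg and 3.11 units, not well above background, in spleen nonTreg. The order therefore ran from brain Treg down to spleen nonTreg, and each neighbouring pair differed by more than 2-fold. Brain Treg exceeded spleen Treg by 5.08 (log2) and brain nonTreg exceeded spleen nonTreg by at least 7.35, or at least 163-fold. The other probes of the gene were also higher in brain Treg than in brain nonTreg, and in the brain than in the spleen. The probe for NM_010743 had 599.5 units in brain Treg and 205 in brain nonTreg, and lay at background in both spleen libraries, at 3.99 units in spleen Treg and 2.76 in spleen nonTreg. Another probe, for NM_001025602 like the chosen one, had 832 units in brain Treg and 196 in brain nonTreg, against 29.2 in spleen Treg and 2.53 units, not well above background, in spleen nonTreg. The gene is known to yield a membrane-bound receptor and a soluble form, and the files do not say which of these each probe reads.

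Il33, the ligand, was not well above background in any T cell library. Its brighter probe there had 4.07 units in brain Treg and 2.24 in brain nonTreg, against 2.41 units in spleen Treg and 3.01 in spleen nonTreg, and the other probe between 1.95 and 2.87 units.

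Il1rap, the partner chain that ST2 and the IL-1 receptor share, had 125 units in brain Treg and 138 in brain nonTreg, against 173 units in spleen Treg and 108 in spleen nonTreg. It had the narrowest range of the 9 members above background in any T cell library, and no pair of libraries differed by 2-fold. Brain Treg lay below spleen Treg (-0.46) and brain nonTreg above spleen nonTreg (0.35). The NM_134103 probe gave -0.74 and 0.11 for the same comparisons. The NM_001159318 probe was well above background only in spleen Treg, at 13.6 units.

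Il1r2, the decoy receptor, had 1751 units in brain Treg and 532 in brain nonTreg, against 221 in spleen Treg and 13.2 units, not well above background, in spleen nonTreg. This is the same order as for Il1rl1. Brain Treg exceeded spleen Treg 7.94-fold, and brain nonTreg exceeded spleen nonTreg at least 40.4-fold. The second probe had 619, 225, 59.4 and 3.1 units in the libraries taken in that order, the last of them not well above background.

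Il1r1, the signalling receptor of IL-1, had 44.5 units in brain Treg and 64.3 in brain nonTreg, against 2.57 units, not well above background, in spleen Treg and 21.5 in spleen nonTreg. Its order differed from that of the decoy receptor, with nonTreg above Treg in both organs, by less than 2-fold in the brain. Brain Treg exceeded spleen Treg at least 4.52-fold and brain nonTreg exceeded spleen nonTreg 2.99-fold. With normexp background correction the bound in Treg was at least 0.39 (log2), which no longer establishes 2-fold, and the measured difference in nonTreg was 0.20.

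Il18r1, the IL-18 binding chain, had 4788 units in brain Treg and 4728 in brain nonTreg, against 1557 units in spleen Treg and 1665 in spleen nonTreg. Both brain libraries lay together above the spleen libraries. Brain exceeded spleen 3.07-fold in Treg and 2.84-fold in nonTreg, whereas Treg and nonTreg differed by 0.02 in the brain and -0.10 in the spleen, both within the scanner error. The second probe, for NM_001161842, gave 3.27-fold in Treg and 3.54-fold in nonTreg. Il18rap, the partner chain of Il18r1, had 246 units in brain Treg and 307 in brain nonTreg, against 24.4 in spleen Treg and 10.5 units, not well above background, in spleen nonTreg. It was 10.1-fold higher in brain Treg than in spleen Treg and at least 24.9-fold higher in brain nonTreg than in spleen nonTreg. Several markers of NK and CD8 T cells were higher in the brain libraries too. Between the Treg libraries 4 of 9 compared were at least 2-fold higher and 0 lower. For nonTreg the counts were 6 of 10 and 0. Their summed level was 11838 units in brain Treg against 2032 in spleen Treg. For nonTreg it was 27589 units in the brain against 4096. The part of these cells in the Il18r1 and Il18rap values was not tested.

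Among the ligands, Il1b had 839 units in brain Treg and 553 in brain nonTreg, with 2.41 units in spleen Treg and 3.51 in spleen nonTreg, neither of these well above background. Brain thus exceeded spleen at least 85.2-fold in Treg and at least 44.7-fold in nonTreg, and the second probe at least 24.5-fold and at least 14.6-fold. Il1a had 39.9 units in brain Treg and 16.8 in brain nonTreg, against 1.97 units in spleen Treg and 2.47 in spleen nonTreg, both spleen values being not well above background. It was at least 4.05-fold higher in brain than in spleen Treg, and the bound in nonTreg was at least 1.36-fold. Il18 had 138 units in brain Treg and 87.3 in brain nonTreg, against 27.0 in spleen Treg and 12.1 units, not well above background, in spleen nonTreg. Its brain value exceeded the spleen value 5.11-fold in Treg and at least 7.06-fold in nonTreg. Il1rn was well above background only in brain Treg, with 26.7 units there and 7.7 in brain nonTreg, against 2.43 units in spleen Treg and 2.76 in spleen nonTreg. Brain Treg exceeded spleen Treg at least 2.71-fold, but the second Il1rn probe was not well above background in any T cell library, at 5.87 units in brain Treg and between 2.24 and 3.15 units in the others.

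Il1a, Il1b, Il1rn and Il18 are also genes of microglia and macrophages, and the markers of these cells were higher in the same libraries. In brain Treg against spleen Treg, 8 of 10 microglia markers and 9 of 10 macrophage and monocyte markers were at least 2-fold higher, including Csf1r (7.30), Trem2 (at least 9.34) and Cd14 (at least 6.96). In brain nonTreg against spleen nonTreg these counts were 7 of 10 and 9 of 10, with Csf1r at 5.60. Their part in the values of the family was not tested. With normexp, the bounds between brain and spleen Treg were at least 0.39 for Il1a, at least 0.39 for Il1r1 and at least 0.12 for Il1rn (log2), and that of Il18 between brain and spleen nonTreg was at least 0.82. These bounds no longer establish a 2-fold difference and do not show a smaller one.

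Promoter windows are shown for Il1rl1 and Il1r2, which had the same order over the T cell libraries, and for Il1b and Il1rn, which were at background in the spleen libraries and in sham brain. Each window runs from 250 bases before to 50 after an annotated start, 5′ to 3′ on the strand of the gene, from RefSeq on GRCm38.p6. Capitals mark matches on either strand to 5 motifs, which do not overlap each other in these windows. For GATA factors the search used AGATAA. For STAT factors the letters searched were TTCNNNGAA. The NF-kB motif was 3 G, 2 free bases, 3 T and 2 C. The TATA box letters were TATAAA. The AP-1 letters were TGANTCA. Both starts of Il1rl1, at chr1:40429320-40429619 and chr1:40439379-40439678 on the plus strand, held 1 AGATAA match. Il1r2, at chr1:40085843-40086142 on the plus strand, held 1 STAT match. Il1b, at chr2:129371090-129371389 on the minus strand, held a TATA box, and Il1rn, at chr2:24345121-24345420 on the plus strand, an NF-kB match and a TATA box letter match after the start. Of the Il1rn windows only this 1 is shown, and the window at chr2:24336610-24336909 on the plus strand held an AP-1 match. Il1a was also at background in the spleen libraries and in sham brain. Its window at chr2:129309923-129310222 on the minus strand, not shown, held an AP-1 match and a TATA box. Il18 shared the order of Il1rl1 and Il1r2 over the T cell libraries. The Il18 window, not shown, held a TATA box letter match before the start.
Il1rl1, upstream start: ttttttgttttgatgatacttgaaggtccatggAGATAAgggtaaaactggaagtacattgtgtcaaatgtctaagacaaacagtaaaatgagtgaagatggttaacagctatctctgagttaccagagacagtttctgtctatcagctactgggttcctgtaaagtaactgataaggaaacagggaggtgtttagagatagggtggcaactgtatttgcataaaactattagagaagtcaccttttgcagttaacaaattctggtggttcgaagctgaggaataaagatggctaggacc
Il1rl1, downstream start: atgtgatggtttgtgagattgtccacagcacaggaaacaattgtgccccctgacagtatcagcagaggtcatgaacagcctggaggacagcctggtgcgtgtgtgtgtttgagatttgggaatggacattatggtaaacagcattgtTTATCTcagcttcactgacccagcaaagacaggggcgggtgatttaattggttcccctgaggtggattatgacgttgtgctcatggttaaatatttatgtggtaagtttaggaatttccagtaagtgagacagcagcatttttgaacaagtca
Il1r2: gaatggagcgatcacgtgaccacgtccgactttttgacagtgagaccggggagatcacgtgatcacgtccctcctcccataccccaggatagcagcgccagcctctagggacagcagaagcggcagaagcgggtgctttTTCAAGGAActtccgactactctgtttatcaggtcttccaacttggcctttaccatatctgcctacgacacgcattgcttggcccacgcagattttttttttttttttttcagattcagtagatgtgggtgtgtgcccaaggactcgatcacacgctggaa
Il1b: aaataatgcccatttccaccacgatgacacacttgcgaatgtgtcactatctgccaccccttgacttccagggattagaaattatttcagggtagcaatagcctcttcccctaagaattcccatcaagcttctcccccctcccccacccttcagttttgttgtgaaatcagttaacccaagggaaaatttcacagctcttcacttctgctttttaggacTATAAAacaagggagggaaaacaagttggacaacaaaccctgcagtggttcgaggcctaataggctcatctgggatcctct
Il1rn: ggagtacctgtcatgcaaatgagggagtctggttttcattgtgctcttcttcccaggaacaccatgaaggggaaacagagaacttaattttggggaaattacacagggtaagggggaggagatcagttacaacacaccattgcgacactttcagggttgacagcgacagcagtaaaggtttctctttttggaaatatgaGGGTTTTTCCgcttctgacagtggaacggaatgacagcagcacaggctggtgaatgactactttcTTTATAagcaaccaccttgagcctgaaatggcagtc
Over all 32851 promoter windows of the table, 11.2% held AGATAA, 8.3% the STAT letters, 1.63% the NF-kB letters, 13.6% TATAAA and 7.81% the AP-1 letters. Of the 17 windows of the 10 genes, 2 held AGATAA, both of Il1rl1, 2 the STAT letters, 2 the NF-kB letters, both of Il1rn, 6 TATAAA and 2 the AP-1 letters. The NF-kB match of Il1rn is 1 site read in 2 overlapping windows. In the order of coding genes on chromosome 1, Il1r2, Il1r1, Il1rl2, Il1rl1, Il18r1 and Il18rap follow each other, and Il1a and Il1b are neighbours on chromosome 2. The chromosome 1 neighbours did not share 1 pattern: Il1rl2 was not well above background in any T cell library, Il1r1 was higher in nonTreg, and Il18r1 did not differ by 2-fold between Treg and nonTreg.

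Within the ischemic brain, Treg exceeded nonTreg in Il1r2 (3.29-fold), Il1rl1 (3.21-fold), Il1rn (at least 2.93-fold) and Il1a (2.38-fold). These are 4 of 9 compared members at least 2-fold higher, when 4.63% of all genes were, and no member was at least 2-fold lower, when 2.86% of all genes were. The remaining differences were 0.66 for Il18, 0.60 for Il1b, 0.02 for Il18r1, -0.14 for Il1rap and -0.53 for Il1r1 (log2). The members' median was 0.63 over 8 measured genes, beside 0.007 over all measured genes. Microglia markers were higher in the Treg library as well (8 of 10, median 1.34), as were 5 of 10 macrophage and monocyte markers, and 8 of 10 markers of NK and CD8 T cells were at least 2-fold lower. With normexp, Il1a differed by 0.36, under 2-fold, and the bound of Il1rn was at least 0.30.

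In the spleen, Treg exceeded nonTreg in Il1r2 (at least 16.8-fold), Il1rl1 (at least 15.4-fold) and Il18 (at least 2.19-fold), while Il1r1 was at least 2.18-fold lower. These are 3 higher and 1 lower of 6 compared members, when 5.34% of all genes were higher and 3.21% lower. Il1rap was 1.60-fold higher in Treg and Il18r1 differed by -0.10. All 4 counted values are bounds, because in each case 1 of the libraries was not well above background, and the median over the other 2 members was 0.29, beside -0.021 over all measured genes. With normexp Il18 was higher by at least 0.09, and the Il1r1 bound was -0.42 (lower by at least that much). Neither establishes 2-fold. Of the 5 microglia markers compared, 1 was higher (Gpr34, 1.55) and 1 lower (Cx3cr1) in spleen Treg, 5 of 7 markers of NK and CD8 T cells were lower, and none of the 3 compared macrophage and monocyte markers reached 2-fold.

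**Figure D2:**
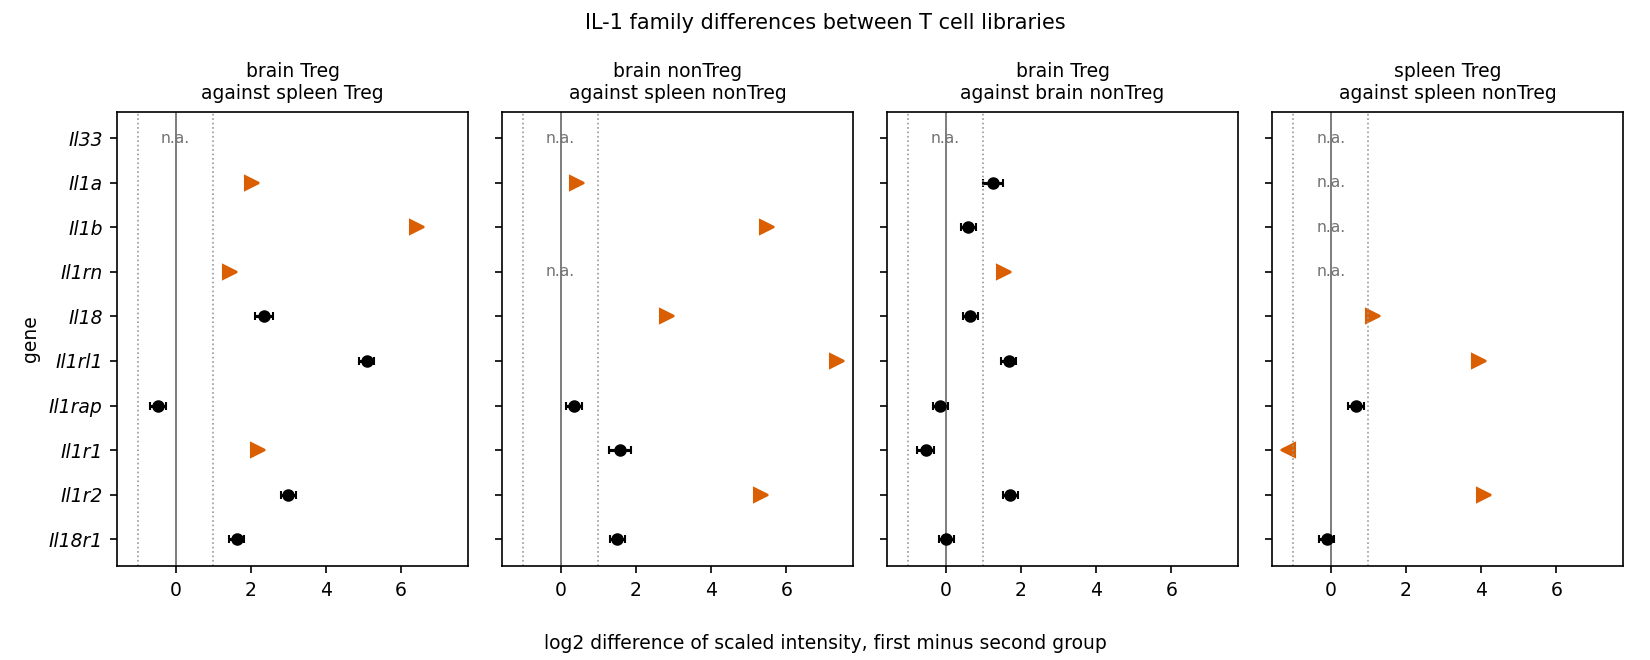
Log2 difference of scaled intensity for each gene in the 4 T cell comparisons (first minus second group), with black points measured in both libraries, bars of the scanner software's error, triangles for lower bounds, dotted lines at 2-fold and n.a. where neither library was well above background. Il1rl1 and Il1r2 lie to the right of the 2-fold line in all 4 comparisons, and Il1rap stays between the lines in all 4.

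Genes around the family in the pathway were compared through 5 lists. Of 14 genes known from ST2-bearing Treg, brain Treg exceeded spleen Treg at least 2-fold in 14, with a median of 4.01 over the 11 measured in both, including Il10 (5.91), Pparg (5.85) and, as the largest bound, Areg (at least 7.29). Brain nonTreg exceeded spleen nonTreg in 11 of the 14, and none was lower. Brain Treg also exceeded brain nonTreg in 8 of the 14, with Areg at 1.96 and Klrg1 at 1.89. In spleen Treg against spleen nonTreg 4 of 11 were higher, among them Dusp4 (at least 4.21). Of 12 cytokine and acute response genes known to follow IL-1 or IL-18, 12 were higher in brain Treg than in spleen Treg, with Ifng at 4.31 and Il17a at least 7.30 higher. Only 2 of the 12 were measured in both of these libraries, and the other values are bounds. In brain nonTreg 10 of the 12 were higher than in spleen nonTreg. The summed level was 9273 units in brain Treg and 22890 in brain nonTreg, against 949 units in spleen Treg and 686 in spleen nonTreg. Between the brain libraries Ifng was lower in Treg (-1.91) and Saa3 higher (2.15), with 3 of 12 higher and 2 lower. The part of other cell types in the values of these lists was not tested.

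Of 16 adaptor and signalling genes, 4 were at least 2-fold higher and 1 lower in brain Treg than in spleen Treg, when 17.1% of all compared genes were higher and 11.7% lower, so that these counts lie near the shares over all genes. Tnfaip3 was at 4.93, Nfkbiz at 2.68, Nfkbia at 2.26 and Irak4 at -1.53. The same counts were found between the nonTreg libraries, beside 17.6% higher and 11.9% lower over all genes, with Tnfaip3 at 5.55 and Irak4 at -1.41. Between the brain libraries none of the 16 reached 2-fold, and in the spleen Nfkbiz did (1.07). Of the inflammasome and processing genes, 2 of 12 compared were higher in brain Treg than in spleen Treg, Casp4 (1.08) and Mefv (at least 3.30), and 1 was lower, Nlrp1b (-1.47), again near the shares over all genes. Between the nonTreg libraries 3 of 10 were higher, namely Casp1 (2.01), Casp4 (2.35) and Mefv (at least 2.34). The genes Il1f10, Il1rl2, Il1rapl1 and Il1rapl2 were not well above background in any T cell library.

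The genes whose levels followed a member most closely were ranked by the root mean square difference of centred log2 values. Names that begin with a digit or with a capital letter and a digit, and provisional names such as those with Gm or Rik, were left out. This also leaves out ordinary genes named in that way, so closer genes may be missing. The gene numbers given include them. For Il1rl1, over the 3 libraries in which it was above background and 11691 genes, they were Cd63, Marcks, Lgmn, Ccr8 and Ccn4, at 0.17 to 0.24. For Il1r2, over the same libraries, they were Aunip, Fabp5, Pigz, Bcat1 and Rapsn, at 0.10 to 0.17. For Il18r1, over 4 libraries and 11300 genes, they were Tob2, Trip10, Plekhf2, Kcnip3 and Vps35, at 0.04 to 0.07. For Il18 they were Csrp2, Tacc3, Rab11fip1, Rrm1 and Dhrs3 (0.03 to 0.05), and for Il1r1, over brain Treg, brain nonTreg and spleen nonTreg and 11425 genes, Coq9, Pcolce, Apol10b, Gpr155 and Fam241a (0.02 to 0.04). With 3 or 4 libraries such likeness is a description only.

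In the brain tissue, ischemia went with higher levels of most of the family in both genotypes. In DEREG ischemia against DEREG sham, 9 of 10 members were at least 2-fold higher, when 22.4% of all genes were higher and 22.1% lower. In WT ischemia against WT sham it was 7 of 10, when 18.8% of all genes were higher and 18.4% lower. No member was at least 2-fold lower by its chosen probe, and Il18 did not reach 2-fold in either genotype. Over the 4 members measured in both libraries the median was 1.12 in DEREG and 0.55 in WT, beside -0.093 and -0.192 over all measured genes. In bulk tissue, fewer cells of a type and less RNA per cell cannot be told apart.

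**Figure D3:**
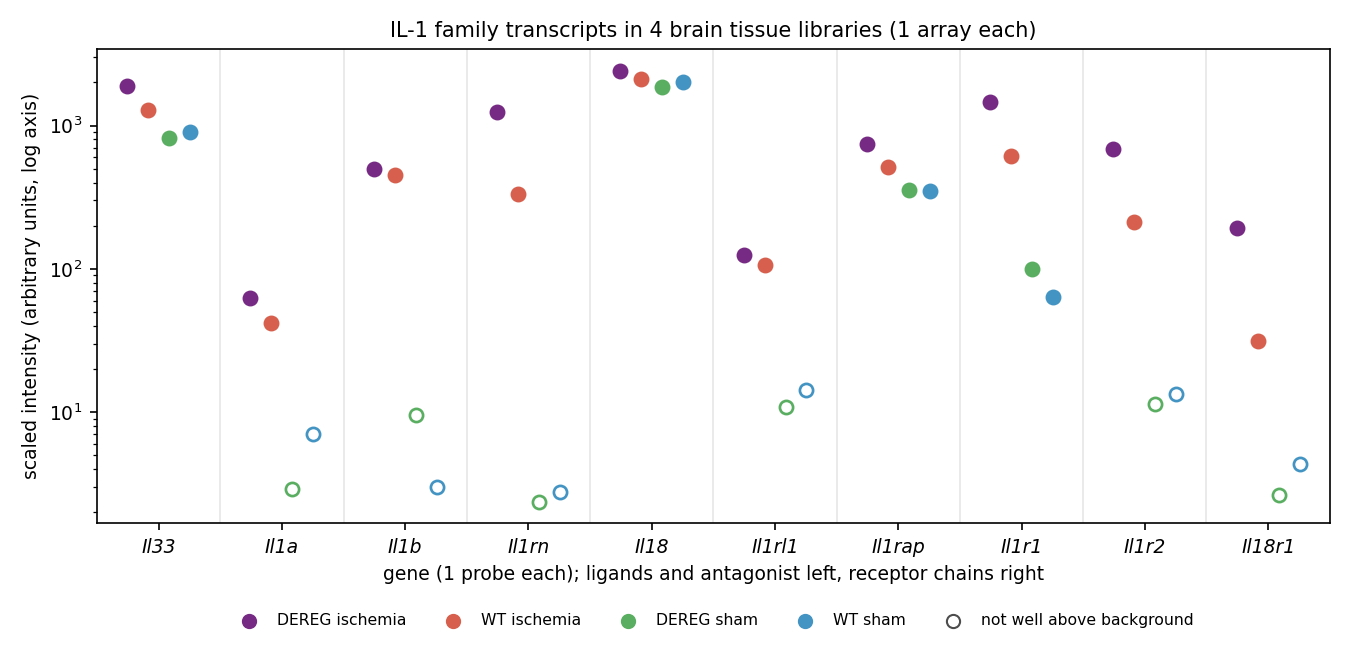
Scaled intensity (log axis, arbitrary units) of the probe chosen for each of the 10 genes in the 4 brain tissue libraries, 1 point per array, with open points not well above background. Il1b, Il1rn, Il1r2, Il1a, Il1rl1 and Il18r1 are open in both sham libraries and filled in both ischemia libraries, whereas Il33, Il18, Il1rap and Il1r1 are filled in all 4.

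Il33 had 1873 units in DEREG ischemia, 1292 in WT ischemia, 822 in DEREG sham and 895 in WT sham. Ischemia exceeded sham 2.28-fold in DEREG and 1.44-fold in WT. The second probe had 334 units in DEREG ischemia, 233 in WT ischemia, 109.6 in DEREG sham and 119 in WT sham. It gave a 3.05-fold difference in DEREG and a 1.96-fold difference in WT.

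Il1rl1 had 124 units in DEREG ischemia, 106 in WT ischemia, and 10.8 units in DEREG sham and 14.3 in WT sham, neither well above background. Ischemia exceeded sham at least 11.4-fold in DEREG and at least 7.44-fold in WT. The 2 other probes of the gene, including the one for NM_010743, were not well above background in any tissue library, with values between 2.2 and 7.47 units. In WT the bound with normexp was at least 0.96 (log2), just short of establishing 2-fold.

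The probes of Il1rap disagreed after ischemia. The chosen probe, for NM_008364, had 739.6 units in DEREG ischemia, 516 in WT ischemia, 356 in DEREG sham and 349 in WT sham, which is 2.08-fold higher after ischemia in DEREG and 1.48-fold higher in WT. The DEREG difference was 0.92 (log2) with normexp and just under 2-fold with the median as scaling point. The NM_001159318 probe had 81.6 units in DEREG ischemia, 113 in WT ischemia, 252 in DEREG sham and 267 in WT sham. It was 3.09-fold lower after ischemia in DEREG and 2.36-fold lower in WT. The NM_134103 probe had 63.5 units in DEREG ischemia, 47.6 in WT ischemia, 52.6 in DEREG sham and 42.0 in WT sham, and differed by 0.27 in DEREG and 0.18 in WT. The gene is known to make a full-length, a soluble and a neuron-restricted form, and the files do not name the form each probe reads. All 10 neuron markers were at least 2-fold lower after ischemia, with a median of -3.13 in DEREG and -1.91 in WT. Their summed level was 22007 in DEREG ischemia, 49216 in WT ischemia, 173939 in DEREG sham and 187366 in WT sham. Their part in the NM_001159318 signal was not tested.

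**Figure D4:**
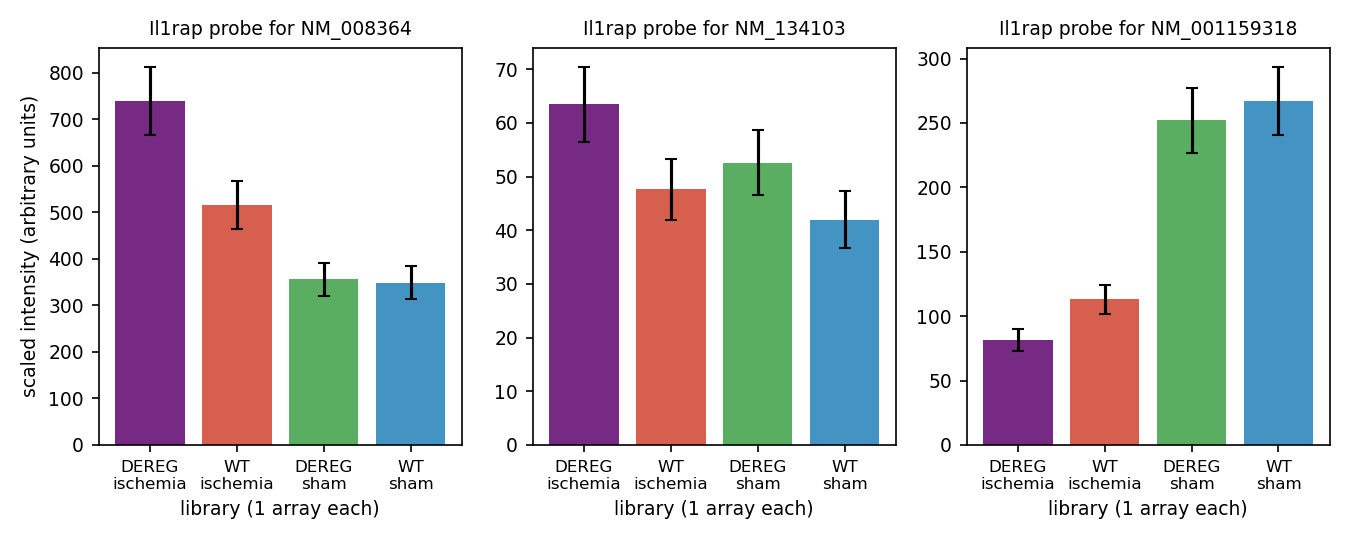
Scaled intensity (linear axis, arbitrary units) of the 3 Il1rap probes in the 4 brain tissue libraries, 1 bar per array. Error bars show the scanner software's error. The NM_008364 probe is higher and the NM_001159318 probe lower in both ischemia libraries than in both sham libraries.

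The receptors of IL-1 were higher after ischemia. Il1r1 had 1450.4 units in DEREG ischemia, 615 in WT ischemia, 99.6 in DEREG sham and 63.3 in WT sham. Ischemia exceeded sham 14.6-fold in DEREG and 9.72-fold in WT. Il1r2 had 689 units in DEREG ischemia, 213 in WT ischemia, and 11.4 in DEREG sham and 13.5 in WT sham, neither well above background. Ischemia exceeded sham at least 60.2-fold in DEREG and at least 15.8-fold in WT, and the second probe at least 19.8-fold and at least 5.68-fold.

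Il18r1 had 194 units in DEREG ischemia, 31.2 in WT ischemia, and 2.65 in DEREG sham and 4.35 in WT sham, neither well above background. The bounds were at least 18.5-fold in DEREG and at least 2.59-fold in WT, and with normexp the WT bound was at least 0.40 (log2), which does not establish 2-fold. Its NM_001161842 probe, which read T cell libraries well, was not well above background in tissue, with 12.2 units in DEREG ischemia and between 2.53 and 3.04 units in the others.

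Among the ligands and the antagonist, Il1b had 499 units in DEREG ischemia, 454 in WT ischemia, 9.53 in DEREG sham and 2.99 in WT sham. The sham values were not well above background, and ischemia exceeded them at least 47.5-fold in DEREG and at least 37.7-fold in WT. Il1a had 63.1 units in DEREG ischemia, 41.6 in WT ischemia, 2.92 in DEREG sham and 7.08 in WT sham, the sham values again not well above background. Its bounds were at least 6.01-fold in DEREG and at least 3.45-fold in WT, and with normexp the WT bound was at least 0.65 (log2). Il1rn had 1249 units in DEREG ischemia, 332 in WT ischemia, 2.38 in DEREG sham and 2.77 in WT sham, the sham values not well above background. Ischemia exceeded sham at least 119-fold in DEREG and at least 27.5-fold in WT. Il18, by contrast, had 2409.8 units in DEREG ischemia, 2102 in WT ischemia, 1863 in DEREG sham and 2011 in WT sham. Its differences were 0.37 in DEREG and 0.06 in WT.

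Markers of several cell types differed alongside. In both genotypes 9 of 10 macrophage and monocyte markers were at least 2-fold higher after ischemia, with Lyz2 at 8.93 in DEREG and 9.10 in WT, while Itgam differed by -1.15 in DEREG and -0.98 in WT. In both, 9 of 10 fibroblast and meningeal markers were higher. Microglia markers were higher in 9 of 10 cases in DEREG and 8 of 10 in WT, with summed levels of 365491 in DEREG ischemia, 318285 in WT ischemia, 63171 in DEREG sham and 71559 in WT sham. The neutrophil genes S100a8 (6.12 in DEREG, 6.30 in WT) and S100a9 (6.19 in DEREG, 5.89 in WT) were higher too, within a neutrophil list with 5 of 8 higher in DEREG and 6 of 8 in WT. T cell markers were higher after ischemia in 7 of 9 cases in DEREG and 4 of 9 in WT, with 1 lower in each. Of the NK and CD8 T cell markers, 7 of 9 were higher in DEREG and 4 of 7 in WT, with 1 lower in each, and of the mast cell and basophil markers 6 of 8 and 5 of 7. The Treg genes Foxp3 and Ctla4 were not well above background in any tissue library. Of the Treg list, 3 of 4 compared markers were higher after ischemia in each genotype, with summed levels of 2778 units in DEREG ischemia, 1839 in WT ischemia, 498 in DEREG sham and 487 in WT sham. The part of these cells in the family's values was not tested.

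DEREG ischemia exceeded WT ischemia by at least 2-fold in 4 of 10 members, when 2.36% of all genes were higher and 5.37% lower, and no member was lower. Il18r1 was 6.21-fold higher, Il1rn 3.77-fold, Il1r2 3.23-fold and Il1r1 2.36-fold, by the values given above, all measured in both libraries. The second probes gave 4.31-fold for Il1rn and 3.04-fold for Il1r2. The other members differed by 0.60 (Il1a), 0.54 (Il33), 0.52 (Il1rap), 0.22 (Il1rl1), 0.20 (Il18) and 0.13 (Il1b) on the log2 scale. Thus the antagonist and the decoy receptor were higher in the DEREG library while Il1b differed by less than the scanner error with its chosen probe and by 0.40 with the other. The members' median was 0.57, beside 0.077 over all measured genes.

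In the same comparison 7 of 9 T cell markers were at least 2-fold higher in DEREG ischemia, with a summed level of 7255 there and 2751 in WT ischemia. NK and CD8 T cell markers were higher in 7 of 9 cases, with Cd8b1 at 3.39, Cd8a at 2.90 and Nkg7 at 2.84, and a summed level of 7385 in DEREG ischemia and 2680 in WT ischemia. Neutrophil markers were higher in 4 of 8 cases, with Cxcr2 at 1.83 and Retnlg at 1.76, and summed levels of 76027 in DEREG ischemia and 57696 in WT ischemia. Of the 4 Treg markers compared, 2 were higher in DEREG ischemia, Tnfrsf18 (1.97) and Il2ra (1.86). Microglia markers did not reach 2-fold in any of 10 cases, 1 of 10 macrophage and monocyte markers did (Ccr2, 1.21), and 6 of 10 neuron markers were at least 2-fold lower. The part of these differences in the 4 receptor and antagonist values was not tested, and each group is 1 library.

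In DEREG sham against WT sham, 0 of 4 compared members reached 2-fold in either direction, when 0.588% of all genes were higher and 0.447% lower. The differences were 0.65 for Il1r1, 0.03 for Il1rap, -0.11 for Il18 and -0.12 for Il33, and the other 6 members were not well above background in either library.

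**Figure D5:**
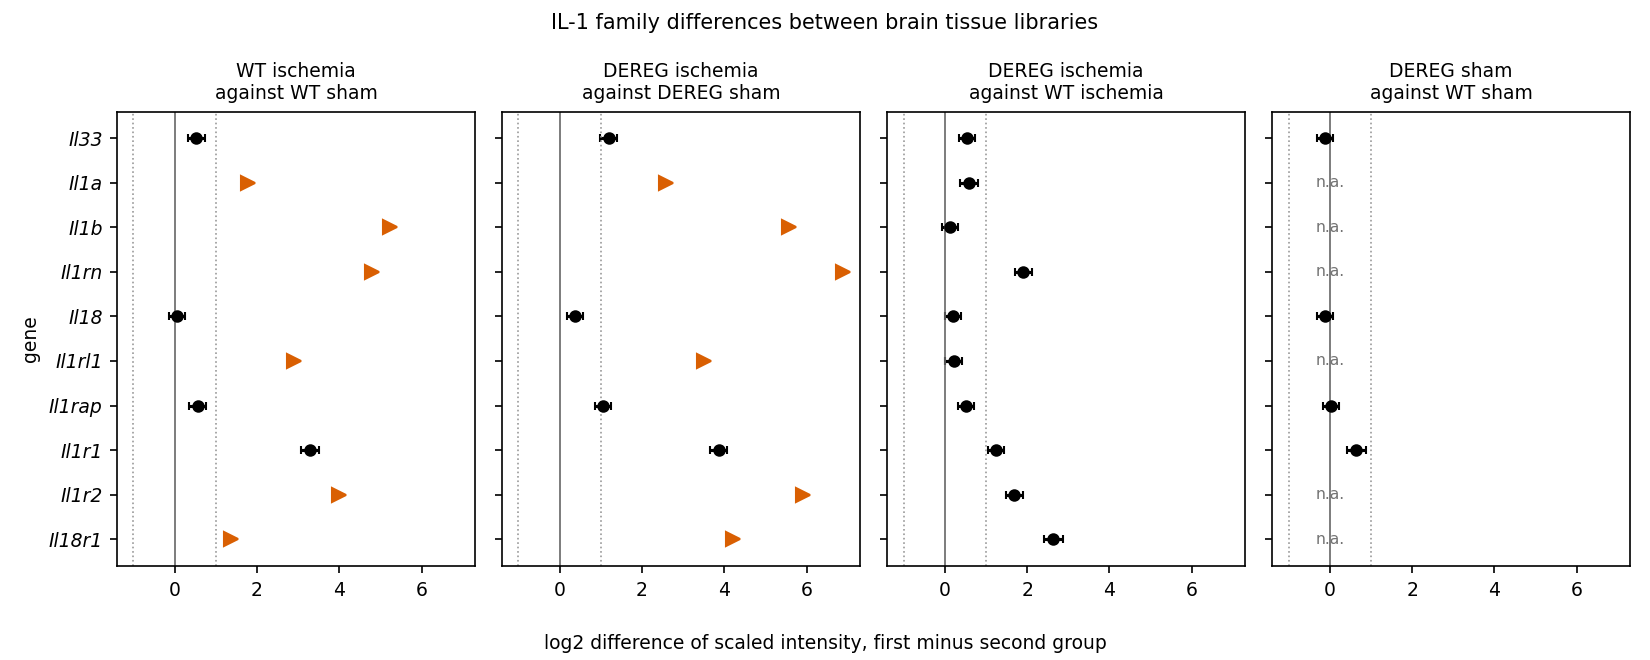
Log2 difference of scaled intensity for each gene in the 4 tissue comparisons (first minus second group), with black points measured in both libraries, bars of the scanner software's error, triangles for lower bounds, dotted lines at 2-fold and n.a. where neither library was well above background. In DEREG ischemia against WT ischemia, Il18r1, Il1rn, Il1r2 and Il1r1 lie beyond the 2-fold line, and no gene reaches it between the sham libraries.

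In the pathway around the family, Il18bp, which neutralises IL-18, had 3403 units in DEREG ischemia, 2566 in WT ischemia, 136 in DEREG sham and 118 in WT sham. It was 24.9-fold higher after ischemia in DEREG and 21.7-fold higher in WT, while Il18 itself stayed within 2-fold. Sigirr, an inhibitory receptor of the family, was 2.91-fold higher in DEREG and 2.35-fold higher in WT. Il1rapl2, a receptor-like gene of neurons, was 9.33-fold lower in DEREG and 6.24-fold lower in WT, and Il1rapl1 6.76-fold and 1.56-fold lower. Il1f10 and Il1rl2 were not well above background in any tissue library, and Il36a, Il36b, Il36g and Il36rn had no named probe.

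Of 14 inflammasome and processing genes, 10 were at least 2-fold higher after ischemia in each genotype, with measured medians of 3.93 in DEREG and 3.42 in WT. Casp4 (5.43 in DEREG, 4.95 in WT), Pycard (5.34 and 4.56) and Gsdmd (4.51 and 4.02) led the measured genes, Mefv gave the largest bound (at least 7.63 and at least 6.38), and Casp1, which cuts the precursors of IL-1 beta and IL-18, was at 3.77 and 3.42. Nlrp3, a sensor of the inflammasome, was not well above background in either sham library, so its bounds, at least 0.89 in DEREG and at least 0.28 in WT, do not show whether it differed by 2-fold. Of 16 adaptor and signalling genes, 9 in DEREG and 8 in WT were higher, among them Irak3 (4.14 in DEREG, 3.65 in WT) and Myd88 (3.54 and 2.93). Between DEREG ischemia and WT ischemia 1 of the 14, Mefv (1.06), and 1 of the 16, Tnfaip3 (1.07), reached 2-fold.

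Of the 12 cytokine and acute response genes, 9 of 11 compared were higher after ischemia in DEREG and 6 of 9 in WT. Saa3 was 10.29 higher in DEREG and at least 10.01 higher in WT, and Ccl2 8.31 and 7.96 higher. Il22 was lower in DEREG (at least 3.22-fold), and 7 of 11 genes were higher in DEREG ischemia than in WT ischemia, including Ifng (1.84), Ccl2 (1.80) and Saa3 (1.79), with 1 lower, Il22 (at least 2.13-fold). Of the 12 genes 3 were also higher in DEREG sham than in WT sham, namely Lcn2 (2.32), Ccl2 (1.45) and Saa3 (at least 1.51). Of the 14 genes known from ST2-bearing Treg, 5 of 10 compared were higher and 1 lower after ischemia in DEREG, and 4 of 7 higher and 1 lower in WT. Gata3 was 2.99 higher in DEREG ischemia than in WT ischemia, and Areg was not well above background in any tissue library.

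The tissue genes most like a member, over 4 libraries and 15119 genes and with the same names left out, were Irf1, Isg20, Stfa2, Birc3 and Glipr2 for Il1r1 (0.10 to 0.15). They were Ptgfrn, Ufm1, Mbd2, Kcnj8 and Abhd12b for Il33 (0.02 to 0.03), and Ufd1, Nasp, Ddx39a, Idnk and Mcm4 for the chosen Il1rap probe (0.02 to 0.03). Such close values over 4 libraries are a description, with no measure of how many genes would reach them in other libraries.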

How the data were processed

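The 8 arrays (Agilent SurePrint G3 Mouse, Cy3) were scanned in 1 colour. Per the submitters' processing notes, the software was Agilent Feature Extraction 10.7.1.1. The authors deposited scanner files whose processed intensity, per the file headers, is linear and background-subtracted within the array, with no step between arrays. Their series table holds that intensity over a constant per array for 99.89% to 99.97% of probes (column medians 0.0681 to 0.123), and how the constant was set is not given in the sources used here. Probes were named by unversioned RefSeq accession: 32994 of 56605 matched 1 symbol, 0 matched several and 23611 matched none. The headers name another genome build than the RefSeq table (GRCm38.p6), so array coordinates were not used, and gene order and promoter windows are those of that table.

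Non-control spots were averaged per probe, log2-transformed and scaled by the 75th percentile, taken over probes above background on all 4 T cell arrays, or over all probes of the tissue arrays. No spot was saturated. Calculations, quantile normalization included, used Python 3.11.15, pandas 2.3.3 and numpy 2.4.6. The normexp alternative (offset 50) used limma 3.58.1 in R 4.3.3. The scanner files used here hold no mean signal, so normexp took the median signal and median background. Other alternatives were another probe set or the median for scaling, genes measured on both arrays, no filter, the median over probes and the deposited table. The counting was tested on simulated data. Members, lists (all genes of each list are counted), alternatives and the naming rule (each member, up to 4 genes with the largest measured difference and the largest bound of a list, and the 5 most similar genes) were chosen with earlier results of these data known. Casp1, Nlrp3, Itgam and Il1rl2 were added after their values were seen. T cell and tissue arrays, which differ in extraction, were not compared.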

Additional observations from a re-analysis of the deposited data

Results flagged for a closer look

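Il1rap was singled out because its difference between brain and spleen had opposite signs in the cell types, at -0.46 in Treg and 0.35 in nonTreg (log2), both larger than the scanner software's error and both under 2-fold. With 1 library per group the difference between these values was not tested. With normexp the nonTreg value was 0.07 and the Treg value -0.41. The NM_134103 probe gave 0.11 in nonTreg, within its scanner error of 0.32, and -0.74 in Treg. The signs thus stayed opposite in these values, while the size of the nonTreg difference depends on the processing and the probe.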

How the results depend on the processing

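Each comparison was recomputed under 8 alternatives. Quantile normalization, the other probe set and the deposited series table left all 66 member values on the same side of 2-fold. The median as scaling point changed 1 of 66, Il1rap in DEREG ischemia against DEREG sham, to just under 2-fold. With normexp 13 of 65 measured differences or bounds no longer reached 2-fold, where a bound does not show a smaller difference. The median over probes changed 5 of 63 and the lack of a filter 1 of 66. Among the 5, Il1rl1 in DEREG ischemia against WT ischemia went from 0.22 to 1.52 (log2), a median that takes in 2 probes not well above background. With normexp the members at 2-fold were 5 in brain Treg against spleen Treg and 4 in brain nonTreg against spleen nonTreg. They were 2 in brain Treg against brain nonTreg, 2 in spleen Treg against spleen nonTreg and 4 in WT ischemia against WT sham. Over all genes the count at 2-fold fell too, from 3991 to 2167 in brain Treg against spleen Treg. In brain nonTreg against spleen nonTreg it fell from 4007 to 2119. In brain Treg against brain nonTreg it fell from 1031 to 277, and in spleen Treg against spleen nonTreg from 1081 to 385. In WT ischemia against WT sham it fell from 6309 to 4484. Among genes measured on both arrays, which leaves out every bound by construction, the members at 2-fold were 4 in brain Treg against spleen Treg. They were 2 in brain nonTreg against spleen nonTreg and 0 in spleen Treg against spleen nonTreg. In tissue they were 1 in WT ischemia against WT sham and 3 in DEREG ischemia against DEREG sham. No count over all genes is given beside these tissue counts, so they are not set against a general share. Of all genes measured on both arrays, 2833 reached 2-fold in brain Treg against spleen Treg. The number was 2781 in brain nonTreg against spleen nonTreg and 706 in spleen Treg against spleen nonTreg. With no filter 2 members reached 2-fold in DEREG sham against WT sham, from values not well above background. That number, too, has no count over all genes beside it. The median over probes turned Il1rap in DEREG ischemia against DEREG sham to -1.63, and in WT ischemia against WT sham to -1.24, because its probes disagree. Scaling by the median moved the median of all genes in WT ischemia against WT sham to -0.36, from -0.19. No paired analysis was possible because each group has 1 array. Signal near background limits Il1a, Il1rn, Il1r1 and the spleen values in T cells, and the sham values of 6 members in tissue.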
